A study of Rattus norvegicus with 32 samples.

Results

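The MCM genes encode the minichromosome maintenance proteins. MCM2 to MCM7 form the ring that is loaded as a double hexamer onto replication origins in G1 and that unwinds the DNA ahead of the fork in S phase, once CDC45 and the GINS complex have joined it. MCM10 takes part in the activation of the loaded ring, and MCM8 acts in another helicase, mainly in homologous recombination. Most of these genes are known targets of the E2F transcription factors and are widely used as markers of cells that can replicate, glioma cells included. The array named 8 genes of the family, Mcm2, Mcm3, Mcm4, Mcm5, Mcm6, Mcm7, Mcm8 and Mcm10, among 26583 named genes, and they were chosen by their gene name, which took 11 of 30367 probes. The family was proposed with results of these data known and which values led to it was not stated, so the levels and differences of its members are given as a description, and p-values fitted over all genes are printed with them only as a measure of the spread.

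C6 is an established rat glioma cell line. The cells were grown to confluence in medium with serum and then divided into 4 groups. Control cells received no treatment, and a second group received angiotensin II (Ang II) at 100 nM. Cells of the remaining pair of groups received the same Ang II dose after 30 min with 10 µM of an antagonist, which was Losartan (Los), blocking the AT1 receptor, in one and PD123319, blocking the AT2 receptor, in the other. No group received an antagonist without Ang II. RNA was taken at 3 h and at 6 h, with 4 replicates in each of the 8 groups and 1 single-colour array for each of the 32 samples. The labels do not say whether replicates came from separate cultures, so p-values measure only the spread between these samples, within the slides they shared.

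Values are log2 signals after cyclic loess normalization, which was run separately at each time. A comparison is written with the first group over the second, as in Ang II x Control. A gene was past both limits when its unadjusted limma p was under 0.05 and its fold change was above 1.2 or below 0.8. The limit on p is that of the study's methods, and the fold limits were set here. On the log2 scale the lower fold limit is further from no change than the upper one, so a lower call needed a larger change. Adjusted p-values are Benjamini-Hochberg values over all genes of the time, 13630 at 3 h and 16446 at 6 h. Replicates of the same number shared a slide, so differences were taken within slides. On every slide Control lay at position 1, Ang II at 2, Ang II+Los at 3 and Ang II+PD123319 at 4, and position and treatment cannot be told apart.

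All 8 genes passed the filter on dim probes at both times, and 0 spots of their 11 probes were saturated. The signal stood well above background on 16 of 16 arrays at each time for 10 probes. The exception was the Mcm10 probe A_44_P262720, left out at 3 h and detected on 13 of 16 arrays at 6 h. It was not detected on the 6 h Control arrays of replicates 2 and 4 and the Ang II+PD123319 array of replicate 4. Of the 6 glial and C6 markers 5 were detected on all 32 arrays, with Gfap on 2 of them. Of the neuronal markers 2 of 4 were detected throughout and Syt1 on 0 arrays, the microglial markers were detected throughout in 4 of 4, and the endothelial Pecam1 was detected on 0 arrays. Bulk RNA does not tell a change in the number of cells expressing a gene from a change in RNA per cell.

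Probe sequences are shown for the genes on which the results turn and for the cases in which 2 probes of a gene gave different values. Coordinates are those of the array files, on rat build rn4, and no annotation of that build was used here. The Mcm2 probes are A_44_P223446 (chr4:122981286-122981436, minus strand), whose 60 bases are spread over 151 bases of genome, and A_64_P027048 (chr4:122978031-122978090, minus strand). In the first the capitals mark the codons of the Walker B stretch of the ATP-binding site, and in the second the stop codon. The Mcm4 probe shown is A_64_P033939 (chr11:87182084-87182143, plus strand). The Mcm5 probe lies at chr19:13998935-13998994 on the plus strand, and the Mcm6 probe at chr13:41052148-41052207 on the minus strand.
Mcm2 A_44_P223446: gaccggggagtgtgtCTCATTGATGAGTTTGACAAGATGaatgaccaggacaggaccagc
Mcm2 A_64_P027048: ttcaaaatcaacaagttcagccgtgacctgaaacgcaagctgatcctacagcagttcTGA
Mcm4 A_64_P033939: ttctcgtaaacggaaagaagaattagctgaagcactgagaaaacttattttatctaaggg
Mcm5 A_64_P014774: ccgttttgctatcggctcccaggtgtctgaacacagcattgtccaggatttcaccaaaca
Mcm6 A_44_P276338: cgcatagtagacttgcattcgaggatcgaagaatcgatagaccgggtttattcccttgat
The other Mcm4 probe, A_43_P14634, lies on the same strand at chr11:87183282-87183341. Mcm3 was measured at chr9:19536947-19537006 (minus strand), Mcm7 at chr12:17607251-17607310 (minus strand) and Mcm8 at chr3:120644171-120644230 (plus strand). The Mcm10 probes are A_43_P23155 at chr17:84375391-84375450 and A_44_P262720 at chr17:84371988-84372047, both on the plus strand.

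The promoters are shown because 5 of the 7 that were matched hold an E2F-type word. RefSeq promoters of build GRCr8, from 250 bases before to 50 after the gene's start, were matched for 7 of the 8 members, all but Mcm4. They were searched on both strands for the E2F-type words TTTCCCGC and TTTGGCGC, for CCAAT and for the GC-box word GGGCGG. One or both E2F-type words stood in 5 of the 7 promoters and in 1.45% of 33469 promoters of the same length. The windows below have 30 bases along the strand of the gene, with the word, in either orientation, in capitals.
Mcm3 (chr9:30733734-30733763): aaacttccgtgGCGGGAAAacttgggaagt
Mcm5 (chr19:13488794-13488823): ccaggttggttTTTCCCGCgaaagtcggct
Mcm5 (chr19:13488593-13488622): tcagaagtttcGCGCCAAAacgtcccgcct
Mcm6 (chr13:42404473-42404502): tggcgtctgctTTTGGCGCgaaattagcgt
Mcm7 (chr12:22163393-22163422): aatttcgaaccGCGGGAAAtcgggtgccca
Mcm8 (chr3:140539622-140539651): gcgtcataggcGCGCCAAAaaagaacttcg
The word TTTCCCGC stood in 3 members and 0.974% of all promoters, and TTTGGCGC in 3 members and 0.493%. The words lay 6 bases before the start in Mcm3, 8 and 209 in Mcm5, 139 in Mcm6, 233 in Mcm7 and 14 in Mcm8. CCAAT was found in 6 of the 7 promoters against 37.5% of all, and GGGCGG in 4 against 33.1%. The Mcm2 and Mcm10 promoters held neither E2F-type word in this window, which says nothing of whether an E2F binds there.

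At 3 h the level of the MCM genes differed more between slides than between treatments. The SD over the 4 Control samples lay between 0.81 for Mcm7 and 1.64 for Mcm5, while the median SD over all genes was 0.34. The Control range of Mcm5 corresponded to 15.5-fold, and 0.818% of all genes had an SD at least as large. Mcm3, a ring subunit, followed with a 10.1-fold range, and Mcm7, another ring subunit, had the smallest range of the family, 3.83-fold. Replicate 1 was the highest and replicate 3 the lowest of the Control samples for 8 of 8 members, an order seen in 19.4% of all genes. The same order held for 8 members in Ang II (13.2% of all genes), for 7 in Ang II+Los (16.1%) and for 8 in Ang II+PD123319 (17.8%).

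At 6 h the samples of replicates 1 and 3 lay above those of replicates 2 and 4 for 8 of 8 members in Control, in 23.4% of all genes, and for 8 in Ang II, in 21.5%. This held for 5 members in Ang II+Los and for 8 in Ang II+PD123319, with 21.2% and 23.6% of all genes. The SD of Control ran from 0.42 for Mcm4 to 1.00 for Mcm10, and that of Ang II from 0.26 for Mcm2 to 0.49 for Mcm8. Mcm4 and Mcm8 were the members whose SD was not larger in Control than in Ang II. The groups overlapped for all 8 members in Ang II x Control and in each antagonist group against Ang II, at both times. Of all genes with a value on every array compared, the share whose groups did not overlap was 1.32% for Ang II, 0.786% for Losartan and 0.368% for PD123319 at 3 h, and 1.82%, 0.256% and 0.602% at 6 h.

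**Figure D1:**
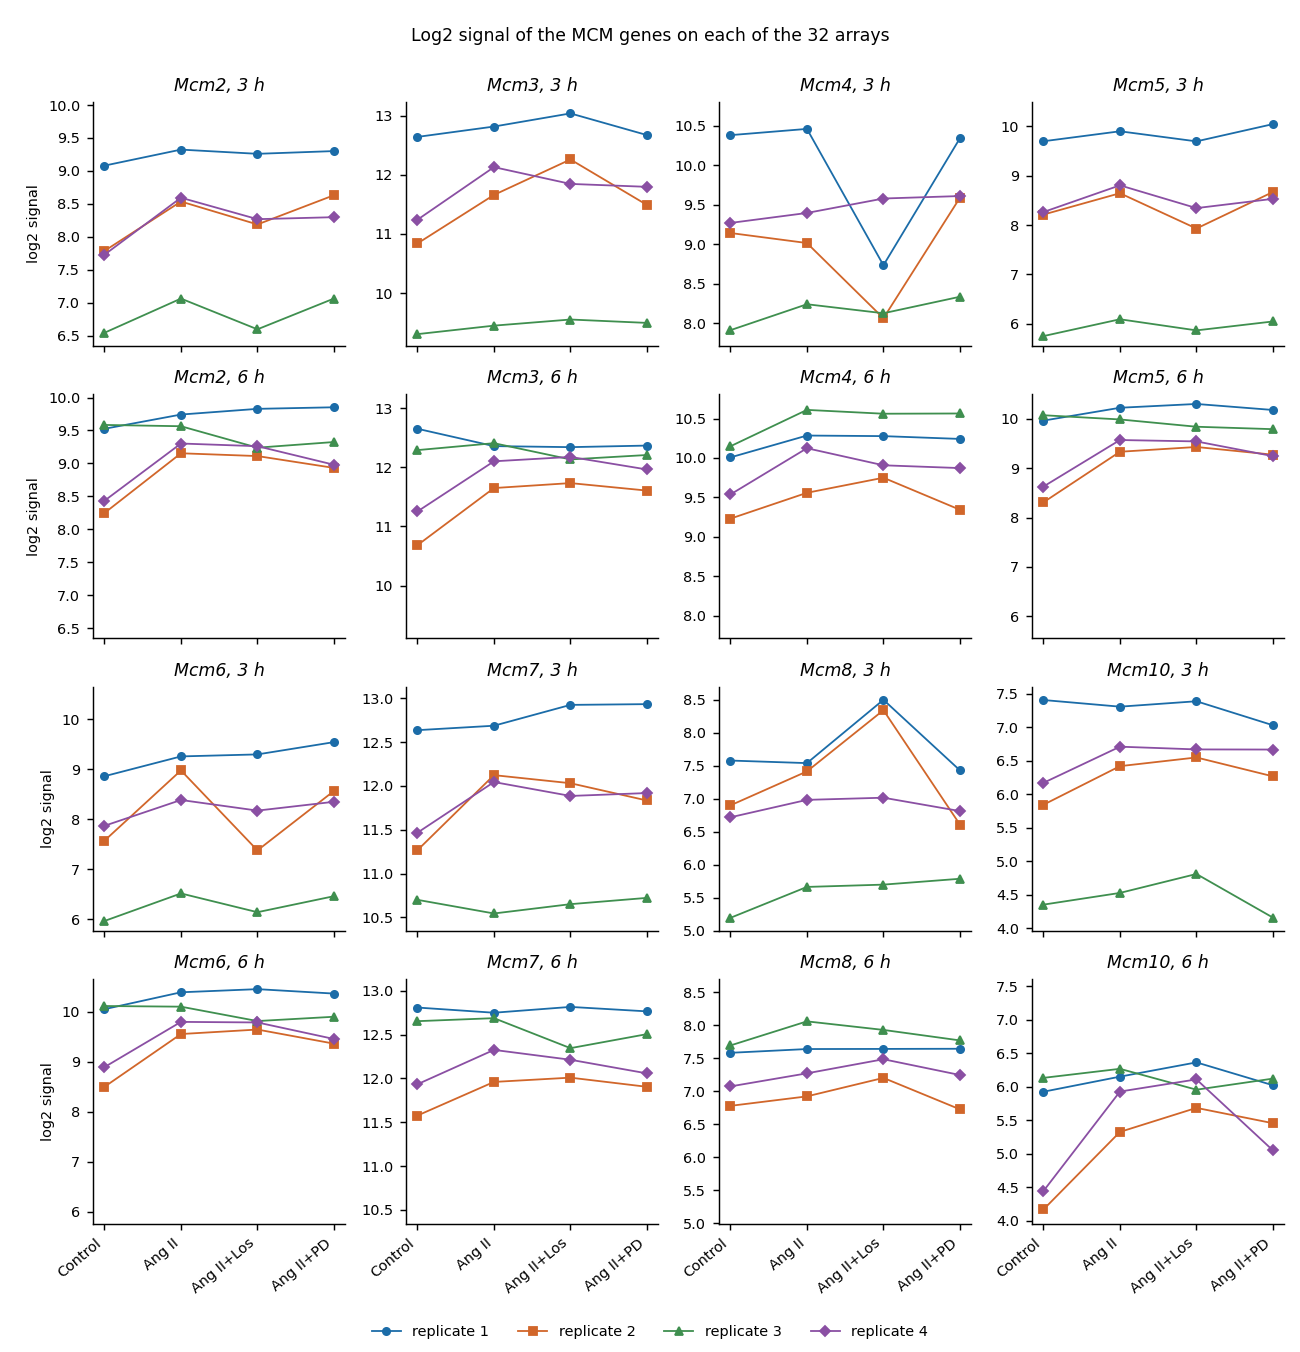
Log2 signal (y axis) of each MCM gene in the 4 groups (x axis, with PD for PD123319) at 3 h and at 6 h, with 1 line for each replicate number, that is, each slide. The lines are set far apart at 3 h, with replicate 1 on top and replicate 3 at the bottom in Control for 8 of 8 genes. The times were normalized separately.

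Ang II x Control at 3 h. Of the 8 MCM genes 5 were higher with Ang II past both limits, Mcm2, Mcm3, Mcm5, Mcm6 and Mcm7, which are subunits of the ring, and 0 were lower. Of all genes 11% were past both limits and 5.04% were past them in the higher direction. The median log2 fold change of the members was 0.36, with 8 of 8 above 0, and that of all genes was 0.00. Of all genes 0 had an adjusted p under 0.05, whereas 12.7% had an unadjusted p under 0.05. Higher genes made up 45.7% of those past both limits, a share that was 23.1% with 75th percentile scaling and 58.7% with normexp background, and all 8 members stayed above 0 under these scalings.

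Mcm2, a ring subunit, had log2 signals of 9.08, 7.79, 6.54 and 7.73 in Control replicates 1 to 4, and of 9.32, 8.54, 7.06 and 8.59 with Ang II. The Ang II sample was the higher on 4 of 4 slides although the groups overlapped. The difference was 0.59 (SE 0.12, adjusted p = 0.322), 1.51-fold. Mcm6, which neighbours Mcm2 in the ring, had 8.86, 7.57, 5.97 and 7.87 in Control and 9.26, 8.98, 6.52 and 8.39 with Ang II. It was also higher on 4 of 4 slides, most on that of replicate 2, and had the largest difference of the family, 0.72 (SE 0.21, adjusted p = 0.322).

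Mcm3, which pairs with Mcm5 in the ring, had 12.64, 10.84, 9.31 and 11.24 in Control and 12.81, 11.66, 9.45 and 12.13 with Ang II. The steps on the slides of replicates 2 and 4, 0.82 and 0.89, were larger than those of replicates 1 and 3, 0.18 and 0.14, and the difference was 0.51 (SE 0.17, adjusted p = 0.336). Mcm5 had 9.70, 8.21, 5.75 and 8.26 in Control and 9.90, 8.65, 6.09 and 8.81 with Ang II. Its 4 steps, 0.20 to 0.54, were the most even among the 5 genes, and the difference was 0.38 (SE 0.11, adjusted p = 0.322). Mcm7 had 12.64, 11.27, 10.70 and 11.47 in Control and 12.69, 12.12, 10.54 and 12.04 with Ang II. It was higher on 3 of 4 slides and lower on that of replicate 3, with a difference of 0.33 (SE 0.15, adjusted p = 0.379).

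The other 3 genes were not past the limits. Mcm4, the remaining ring subunit, had 10.38, 9.14, 7.91 and 9.27 in Control and 10.46, 9.02, 8.24 and 9.40 with Ang II, and the difference was 0.10 (95% interval -0.53 to 0.73). Mcm10 had a difference of 0.30 (SE 0.15, adjusted p = 0.407) and Mcm8 one of 0.30 (SE 0.23, adjusted p = 0.57), each with the Ang II sample higher on 3 of 4 slides.

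Both Mcm2 probes, whose sequences are given above, were higher on average with Ang II at 3 h, but by different amounts. The probe over the Walker B codons had a log2 fold change of 0.95 (SE 0.17) and was past both limits, with 4 of 4 slides higher. The probe at the stop codon had 0.24 (SE 0.14) and was not, with 3 of 4 slides higher. With that probe alone Mcm2 was not past the limits, and the difference between the probes was not tested. Without replicate 4 the members past both limits numbered 2, Mcm2 and Mcm6, and all genes past them numbered 769 in place of 1503.

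Ang II x Control at 6 h. Again 5 MCM genes were higher past both limits, and 0 were lower, but they were Mcm2, Mcm4, Mcm5, Mcm6 and Mcm10. The call of Mcm10 rests on a probe that passed the filter only through groups treated with Ang II, as given below. Of all genes 11.5% were past both limits and 6.78% in the higher direction. The median of the members was 0.45, with 8 of 8 above 0, and that of all genes was -0.01. Of all genes 21.5% had an unadjusted p under 0.05 and 0 an adjusted p under 0.05. Higher genes made up 59.2% of those past both limits, or 44.1% with 75th percentile scaling, under which all 8 members were also above 0.

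Mcm4 had the smallest SE of the family. Its signals were 10.01, 9.23, 10.15 and 9.54 in Control and 10.28, 9.56, 10.61 and 10.12 with Ang II. The Ang II sample was higher by 0.28 to 0.59 on 4 of 4 slides, and the difference was 0.41 (SE 0.08, adjusted p = 0.0598). Its probe in the printed sequence had a log2 fold change of 0.57 (SE 0.09) and was past both limits. The other probe had 0.25 (SE 0.08), with 4 of 4 slides higher, and stayed under the fold limit.

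For the other 4 genes the difference lay on the slides of replicates 2 and 4. Mcm2 had 9.53, 8.25, 9.58 and 8.43 in Control and 9.74, 9.15, 9.56 and 9.30 with Ang II, and the difference was 0.49 (SE 0.17, adjusted p = 0.143). The Control samples of replicates 2 and 4 were the lowest of the 8, and the Ang II sample of replicate 3 was level with its Control. Mcm5 had 9.97, 8.31, 10.07 and 8.63 in Control and 10.23, 9.33, 9.99 and 9.57 with Ang II, a difference of 0.54 (SE 0.18, adjusted p = 0.145). Mcm6 had 10.05, 8.50, 10.11 and 8.89 in Control and 10.39, 9.55, 10.10 and 9.80 with Ang II, a difference of 0.57 (SE 0.18, adjusted p = 0.128). In all 3 of these ring subunits the Ang II sample was higher on 3 of 4 slides and lower on that of replicate 3.

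Mcm10 had 5.93, 4.17, 6.13 and 4.44 in Control and 6.15, 5.33, 6.27 and 5.93 with Ang II, and was higher on 4 of 4 slides. Its steps of 1.16 and 1.48 on the slides of replicates 2 and 4 were above those of replicates 1 and 3, 0.23 and 0.14, and the difference was the largest of the family, 0.75 (SE 0.26, adjusted p = 0.151). The Mcm10 probe A_44_P262720 had 1.03 (SE 0.32) and was past both limits, and A_43_P23155 had 0.47 (SE 0.22) and was not. On the Control arrays of replicates 2 and 4 A_44_P262720 was not well above background, with log2 signals of 1.69 and 2.36. It passed the filter only through Ang II and Ang II+Los, where all 4 arrays were well above background. The filter thus favoured a rise over Control in this probe. The call of Mcm10 and its place as the largest difference rest on that probe, so neither is support for a rise. Mcm3 had a difference of 0.41 (SE 0.21, adjusted p = 0.273) and Mcm7 of 0.19 (SE 0.10, adjusted p = 0.317), and neither was past the limits. Mcm8 was higher on 4 of 4 slides, by 0.19 (SE 0.08, adjusted p = 0.214), which was under the fold limit.

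The median of the members on each slide at 6 h was 0.22 for replicate 1, 0.94 for replicate 2, 0.08 for replicate 3 and 0.86 for replicate 4. Leaving out replicate 2 or replicate 4 left 1 member past both limits, Mcm4, while all genes past them numbered 1370 and 1223 in place of 1885. Genes measured on the same slide are not separate cases, so the next counts are given by slide. At 3 h the Control sample was the lowest of its slide for 4, 4, 6 and 8 of the 8 genes on the slides of replicates 1 to 4. Of all genes 26.5%, 24.1%, 34.4% and 30.4% had Control lowest there. At 6 h it was 6, 7, 2 and 8 of the 8 genes, against 35.3%, 36.8%, 29.2% and 31.2% of all genes.

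**Figure D2:**
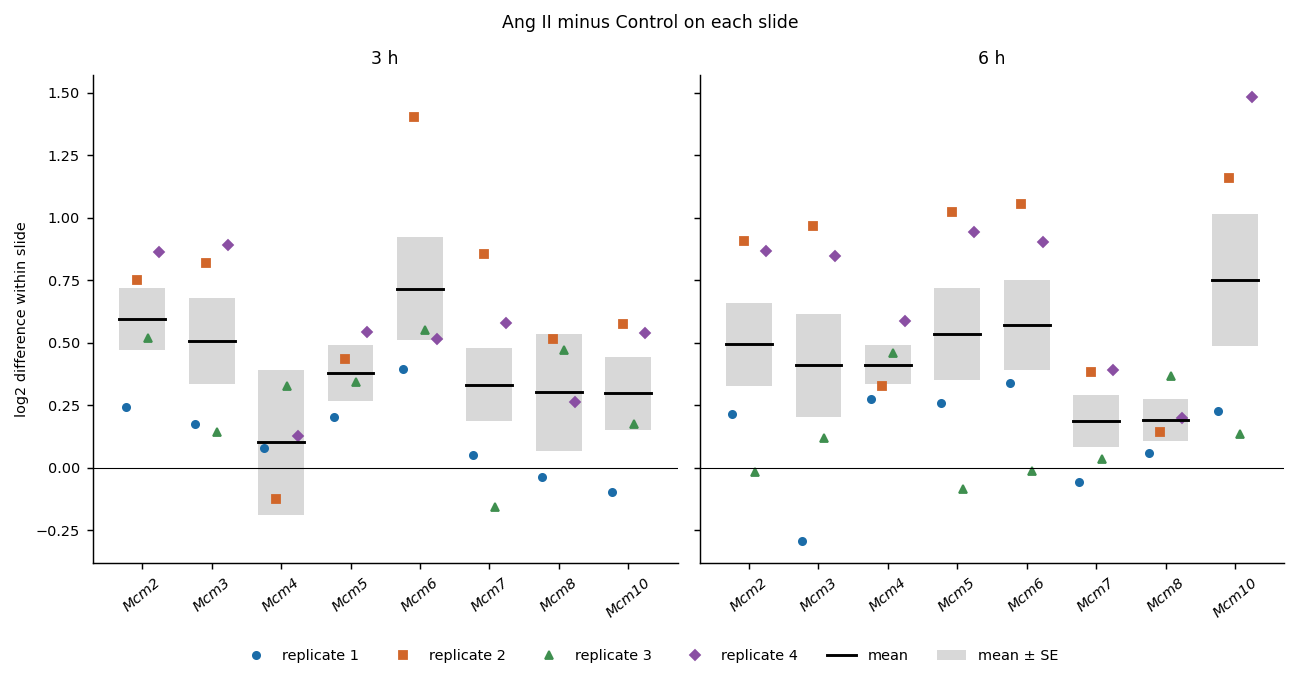
Log2 difference between the Ang II and the Control array of each slide (y axis) for each MCM gene (x axis), at 3 h on the left and 6 h on the right, with 1 point for each of the 4 replicates, a line at the mean and a grey band of 1 SE of the fit on either side. All 8 means lie above 0 at both times, and at 6 h the points of replicates 2 and 4 lie above those of replicates 1 and 3 for 6 of the 8 genes, all but Mcm4 and Mcm8.

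The differences at the 2 times were set against each other in the 13617 genes measured at both. The change in the log2 fold change of Ang II x Control from 3 h to 6 h lay between -0.15 (Mcm6) and 0.45 (Mcm10, SE 0.31), and 0 of the 8 members had an unadjusted p under 0.05. Their adjusted p-values lay between 0.737 and 0.953. For Mcm10 the 3 h value came from 1 probe and the 6 h value from the mean of 2, so unlike measures were compared. Its probe measured at both times, A_43_P23155, had 0.30 (SE 0.15) at 3 h and 0.47 (SE 0.22) at 6 h. The change of that probe alone was not tested. Of all genes 7.17% had an unadjusted p under 0.05 and 0 an adjusted p under 0.05. Mcm4, whose 6 h value alone was past the limits, changed by 0.31 (SE 0.31), so a difference between the times was not shown for it.

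Losartan at 3 h. In Ang II+Los x Ang II 3 MCM genes were lower with Losartan past both limits, Mcm4, Mcm5 and Mcm6, and 0 were higher. Of all genes 10.1% were past both limits and 5.41% were past them in the lower direction. The median of the members was -0.14, with 4 above and 4 below 0, and that of all genes was 0.00. Of all genes 10.9% had an unadjusted p under 0.05 and 0 an adjusted p under 0.05. This comparison shares its Ang II samples with Ang II x Control, and the directions of both are therefore not independent.

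Mcm5 with Losartan had 9.70, 7.93, 5.86 and 8.34, below the Ang II samples of the same slides on 4 of 4, and the difference was -0.40 (SE 0.11, adjusted p = 0.427). Mcm6 had 9.30, 7.38, 6.15 and 8.17, a difference of -0.54 (SE 0.21, adjusted p = 0.427). The slide of replicate 2 gave -1.60 for Mcm6, that of replicate 1 gave 0.04, and those of replicates 3 and 4 gave -0.37 and -0.21. Mcm2 had a difference of -0.30 (SE 0.12, adjusted p = 0.427), whose unadjusted p of 0.0309 was under 0.05 while its fold was not below 0.8. Mcm3, Mcm7 and Mcm10 had differences of 0.16, 0.02 and 0.11 and were not past the limits.

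Mcm4 had 8.74, 8.07, 8.13 and 9.58 with Losartan against 10.46, 9.02, 8.24 and 9.40 with Ang II alone, a difference of -0.65 (SE 0.29, adjusted p = 0.427). The differences on the slides of replicates 1 and 2 were -1.73 and -0.95, while those of replicates 3 and 4 were -0.11 and 0.18. The probe in the printed sequence carried them, with -3.01, -2.65, -0.35 and 0.31 on the 4 slides and a log2 fold change of -1.43 (SE 0.53). The other probe of the gene gave -0.44, 0.75, 0.12 and 0.06, with a log2 fold change of 0.12 (SE 0.17), which was not past the limits.

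Mcm8 moved the other way on the same arrays. It had 8.50, 8.35, 5.70 and 7.02 with Losartan against 7.54, 7.42, 5.66 and 6.98 with Ang II alone, a difference of 0.49 (SE 0.23, adjusted p = 0.427), which was not past the limits. Its Ang II+Los samples of replicates 1 and 2 were higher by 0.96 and 0.93, and those of replicates 3 and 4 by 0.04 and 0.03. Replicates 1 and 2 were in scan 1 and replicates 3 and 4 in scan 2. Within scan 1 the log2 fold change was -1.34 for Mcm4 and 0.95 for Mcm8, and within scan 2 it was 0.03 for both. For Mcm5 and Mcm6 the values were -0.46 and -0.78 within scan 1 and -0.34 and -0.29 within scan 2.

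The SD of all genes from the mean of their slide was 0.42 and 0.63 for the Ang II+Los arrays of replicates 1 and 2, against 0.13 to 0.47 for the other 14 arrays at 3 h. Without these 2 arrays 0 members were past the limits, where all genes past them numbered 515 in place of 1374, and the difference was 0.09 for Mcm4, -0.28 for Mcm5 and -0.36 for Mcm6. Their part in the results was not tested further.

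**Figure D3:**
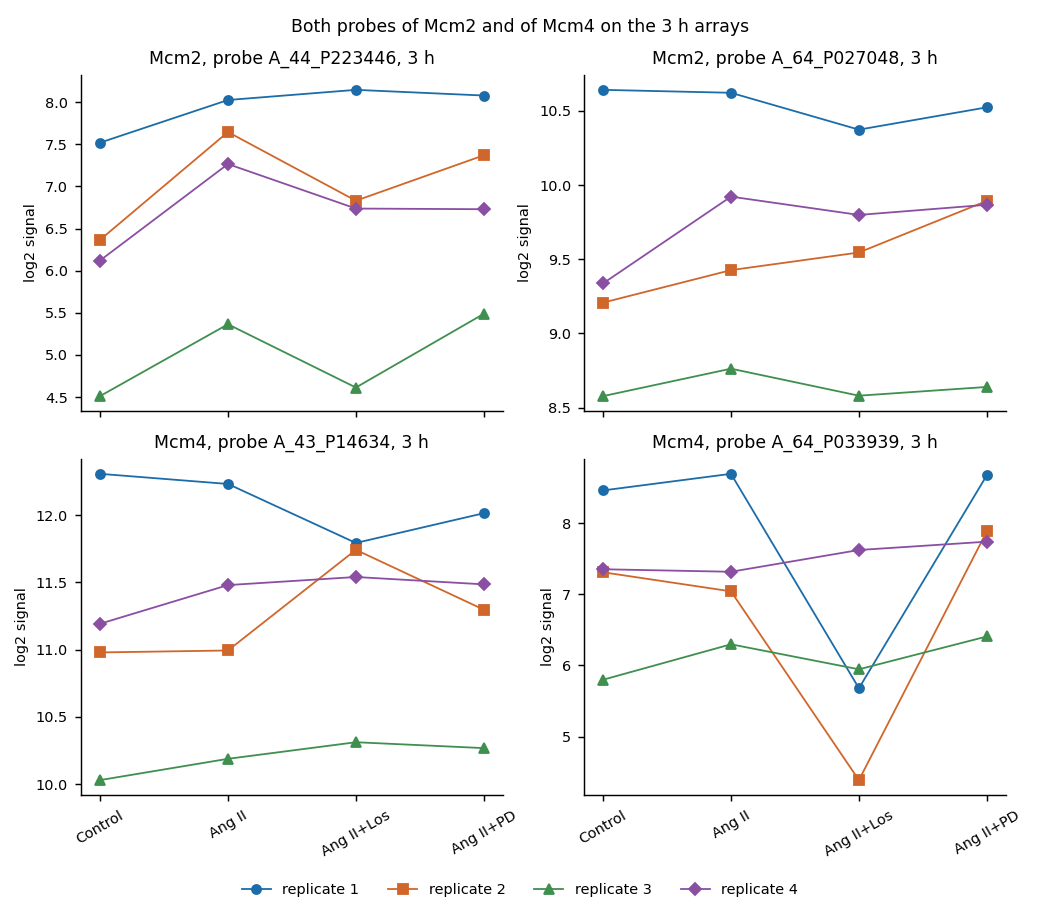
Log2 signal (y axis) of the 2 probes of Mcm2 and the 2 probes of Mcm4 on the 3 h arrays, by group (x axis, with PD for PD123319), with 1 line for each replicate number. Probe A_64_P033939 of Mcm4 drops in the Ang II+Los samples of replicates 1 and 2 while A_43_P14634 does not drop in replicate 2, and the Mcm2 probe A_44_P223446 steps up from Control to Ang II on 4 of 4 slides.

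Losartan at 6 h. In Ang II+Los x Ang II 0 of the 8 genes were past both limits, and 0 had an unadjusted p under 0.05, by limma. Of all genes 0.9% were past both limits and 1.99% had an unadjusted p under 0.05. The differences lay between -0.08 for Mcm7 and 0.11 for Mcm10, with a median of -0.03. The 95% interval was -0.19 to 0.15 for Mcm4 and -0.40 to 0.40 for Mcm5, so changes of these sizes would not have been seen. On the slide of replicate 3 the Losartan samples were lower, with a median of -0.28 over the 8 genes, whereas the medians of the other slides lay between -0.02 and 0.09.

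PD123319. In Ang II+PD123319 x Ang II 0 of the 8 genes were past both limits at 3 h and 0 at 6 h, and 0 had an unadjusted p under 0.05 at either time by limma. Of all genes 2.64% were past both limits at 3 h and 3.79% at 6 h, and 2.99% and 6.37% had an unadjusted p under 0.05. At 3 h the differences lay between -0.24 for Mcm8 and 0.19 for Mcm4, with a median of -0.05. At 6 h all 8 genes were below 0, between -0.26 for Mcm10 and -0.09 for Mcm3, with a median of -0.15 against 0.00 over all genes. Each 95% interval at 6 h held 0, and that of Mcm4, the gene with the smallest SE, ran from -0.31 to 0.03.

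**Figure D4:**
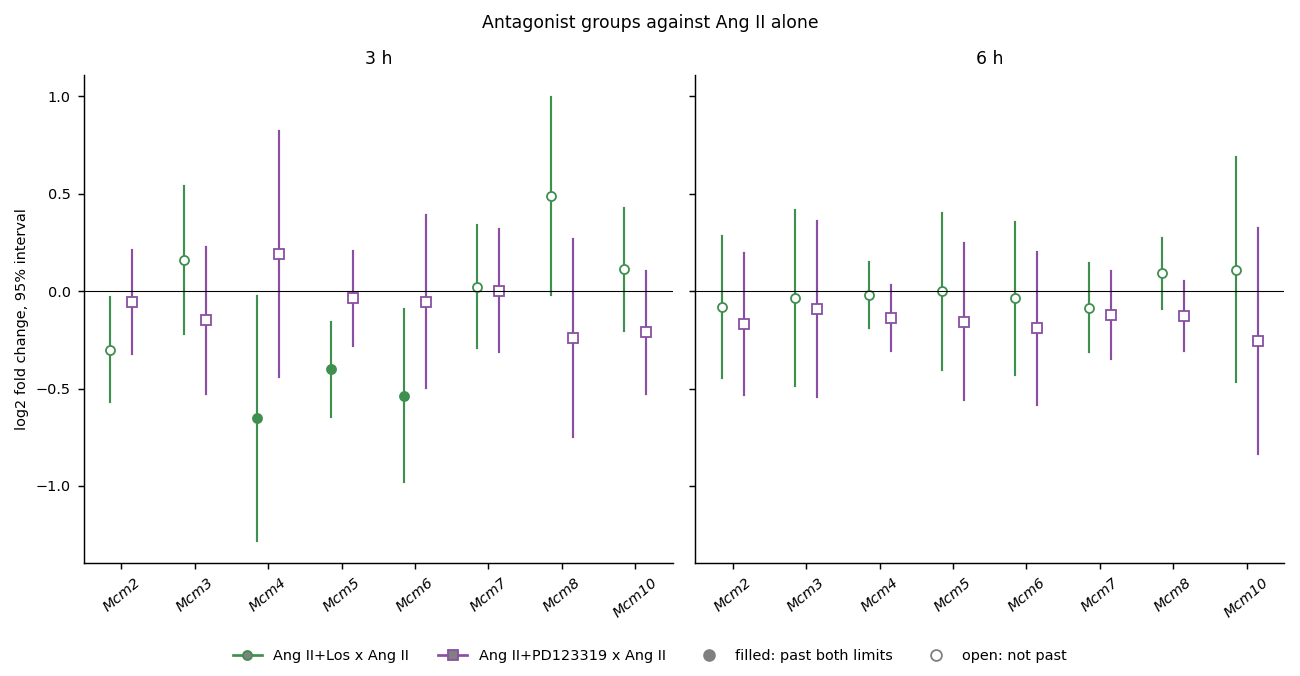
Log2 fold change (y axis) of each MCM gene (x axis) with each antagonist over Ang II alone, at 3 h on the left and 6 h on the right, with the fitted value, filled where it was past both limits, and its 95% interval as a vertical line. Mcm4, Mcm5 and Mcm6 lie below 0 with Losartan at 3 h, filled, with the widest intervals at Mcm4, and at 6 h the fitted values lie between -0.26 and 0.11.

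Against Control, which these comparisons share with Ang II x Control, 5 of the 8 genes were higher past both limits with Ang II+Los at 3 h, Mcm2, Mcm3, Mcm7, Mcm8 and Mcm10. Of all genes 20% were past both limits and 9.92% in the higher direction. Mcm5, at -0.02 (95% interval -0.27 to 0.22), and Mcm4, at -0.55 (-1.18 to 0.08), were the ring subunits below 0. The Mcm4 value came from probe A_64_P033939, at -1.32 (SE 0.53), with -2.78, -2.92, 0.15 and 0.27 on the 4 slides. The other Mcm4 probe, A_43_P14634, gave 0.22 (SE 0.17). Mcm8 was higher by 0.92 and 1.44 on the slides of replicates 1 and 2, against 0.50 and 0.30 on those of replicates 3 and 4. With Ang II+PD123319 at 3 h 4 genes were higher, Mcm2, Mcm5, Mcm6 and Mcm7, where 6.1% of all genes were past both limits and 2.61% in the higher direction. Mcm6 was higher by 0.66 (SE 0.21) with Ang II+PD123319 and by 0.18 (SE 0.21) with Ang II+Los.

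The antagonists were given at the same dose and times, and their groups were compared directly. In Ang II+Los x Ang II+PD123319 at 3 h 5 genes were past both limits, with 13.2% of all genes, of which 7.09% lay in the higher and 6.1% in the lower direction. Mcm4 (-0.84, SE 0.29), Mcm5 (-0.36, SE 0.11) and Mcm6 (-0.48, SE 0.21) were lower with Losartan. Mcm8 (0.73, SE 0.23) and Mcm10 (0.32, SE 0.15) were higher. The adjusted p was 0.34 for each of the 5, and the values of Mcm4 and Mcm8 rest on the same 2 arrays as above. Probe A_43_P14634 of Mcm4 gave 0.08 (SE 0.17) here and was not past the limits. At 6 h 0 genes were past both limits, with 4.17% of all genes.

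At 6 h the means of the groups stood in nearly the same order for every member. Control was the lowest for 8 of 8 genes and Ang II+PD123319 the next for 8 of 8, followed by Ang II and Ang II+Los in either order. The share of all genes with this order of means was not counted, and the members varied together at 6 h. On the slide of replicate 3 Control was the lowest for 2 of the 8 genes, with 29.2% of all genes. With Ang II+Los x Control 6 genes were past both limits, Mcm2, Mcm4, Mcm5, Mcm6, Mcm8 and Mcm10, with 11.4% of all genes and 6.51% in the higher direction. Mcm4 was higher there by 0.39 (SE 0.08, adjusted p = 0.0394), one of 224 genes, 1.36% of all, with an adjusted p under 0.05. Its probe A_64_P033939 gave 0.55 (SE 0.09) and was past both limits, while A_43_P14634 gave 0.23 (SE 0.08) and was not. With Ang II+PD123319 x Control Mcm4 alone was past both limits, at 0.27 (adjusted p = 0.0828), with 13.5% of all genes and 7.07% in the higher direction. There A_64_P033939 gave 0.40 (SE 0.09), past both limits, and A_43_P14634 gave 0.14 (SE 0.08), not past them. Neighbours in this order other than Control and Ang II+PD123319 for Mcm4 did not differ past the limits.

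The genes that load, activate and follow the helicase were taken as 5 lists. In Ang II x Control at 3 h, 2 of 8 loading genes tested, 4 of 10 activation genes, 4 of 26 fork genes, 3 of 8 E2F factors and G1/S cyclins and 4 of 11 mitotic genes were higher past both limits. Of all genes 5.04% were higher past both limits, and in these 5 lists 0 were lower. Their median log2 fold changes were 0.31, 0.26, 0.26, 0.19 and 0.21. Cdc6, which brings the ring to the origin, was higher by 0.84 (SE 0.29, adjusted p = 0.338). Topbp1, needed to fire the origin, was higher by 0.46 (SE 0.15, adjusted p = 0.325), and Wdhd1, a fork adaptor, by 0.61 (SE 0.25). Rpa1, which covers single-stranded DNA, was higher by 0.69 (SE 0.22), and Ccne1, the cyclin E1 gene, by 0.68 (SE 0.21). E2f1 was higher by 0.30 (SE 0.12), and the mitotic Ccnb2 and Aurka by 0.28 and 0.31.

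At 6 h 5 of 8 loading genes, 7 of 12 activation genes, 11 of 28 fork genes, 4 of 10 E2F factors and G1/S cyclins and 1 of 11 mitotic genes were higher, and 0 were lower, with 6.78% of all genes higher. The medians were 0.39, 0.29, 0.29, 0.16 and 0.17. The origin recognition genes Orc1 and Orc6 were higher by 0.53 (SE 0.18) and 0.47 (SE 0.15), and Gins2, a subunit of the GINS complex, by 0.62 (SE 0.18). Donson was higher by 0.70 (SE 0.13, adjusted p = 0.0598) and Topbp1 by 0.53 (SE 0.19). Pola1 and Pola2, subunits of the priming polymerase, were higher by 0.67 (SE 0.21) and 0.69 (SE 0.19), and Clspn, a fork protein of the replication checkpoint, by 1.31 (SE 0.31, adjusted p = 0.083). E2f1, E2f8, a repressor of the E2F family, and Cdk2, a kinase of the G1/S step, were higher by 0.43, 0.62 and 0.40, and the mitotic kinase gene Aurkb by 0.41.

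With Losartan over Ang II at 3 h 1 of 8 loading, 1 of 10 activation, 1 of 26 fork and 1 of 8 E2F and G1/S genes were higher, and 1 of 26 fork and 1 of 11 mitotic genes were lower. Of all genes 4.67% were higher and 5.41% lower past both limits. Orc6 was higher by 0.37, Chaf1b, a chromatin assembly gene, by 0.55 and Cdc25a, a phosphatase of the G1/S step, by 0.39, each on 4 of 4 slides. The other 3, named after their values were seen, were Mtbp, an activation gene, at 0.35, Pola1 at -0.47 and Top2a, the topoisomerase II alpha gene, at -0.48. At 6 h 0 genes of the lists were past the limits with Losartan, and with PD123319 there were 0 at 3 h and 1 at 6 h, Orc6, at -0.33 (SE 0.15). Of the other MCM-named genes, Mcmbp, whose product binds the ring, was not past the limits in Ang II x Control, where its difference was 0.69 (SE 0.33, adjusted p = 0.406) at 3 h and 0.25 at 6 h. For Prkdc and Trmt6, the head-to-head neighbours of Mcm4 and Mcm8, neither time showed a gene past the limits between Ang II and Control.

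**Figure D5:**
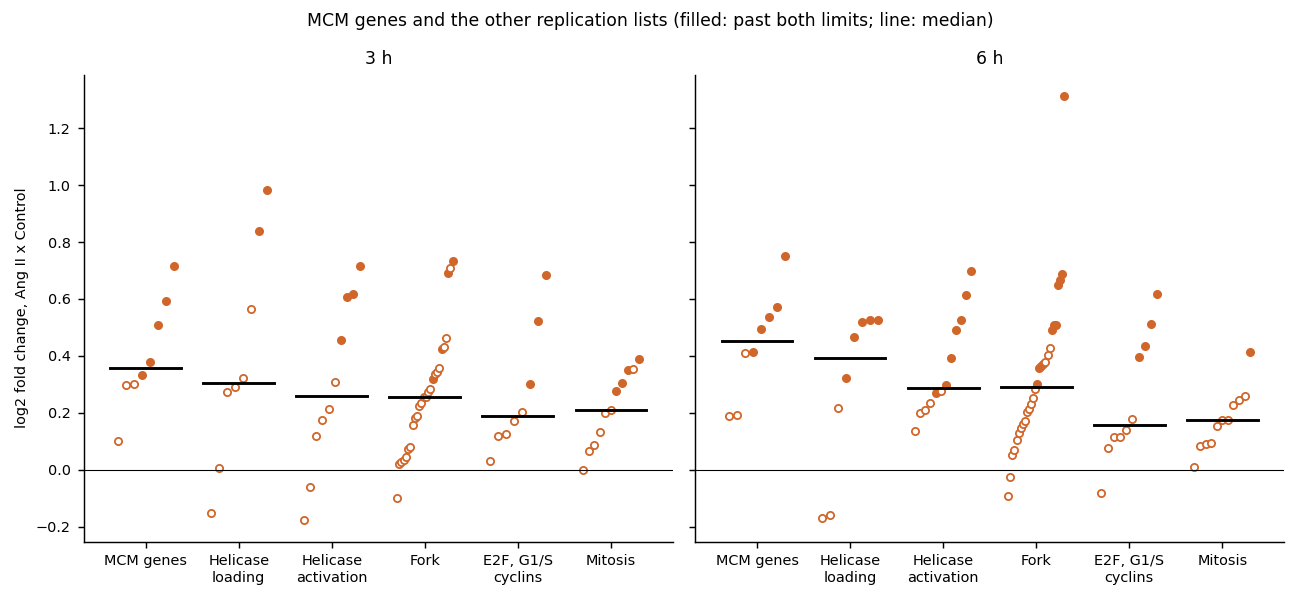
Log2 fold change of Ang II x Control (y axis) for the MCM genes and for each list of replication and mitosis genes (x axis) at 3 h and at 6 h, with 1 point per gene, filled where the gene was past both limits, and a line at the median. The medians of the lists lie above 0 at both times, and no filled point lies below 0.

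The likeness of single genes to the family was measured over the 32 arrays after the mean of each slide was taken off, for 8224 genes. These arrays share slides and treatments, so the correlations are a description. Mcm2 was the member most like the mean of the other 7 (Pearson's r = 0.917), followed by Mcm5 (0.831), Mcm10 (0.784), Mcm6 (0.755), Mcm7 (0.735) and Mcm3 (0.727). Mcm8 (0.121) and Mcm4 (0.0795) followed the others least. At 6 h alone the values of Mcm4 and Mcm8 were 0.682 and 0.611, and at 3 h -0.203 and -0.0635. Outside the family the genes most like its mean were E2f1 (0.942), Coro1c (0.908), Cxxc5 (0.902), Topbp1 (0.896) and Crip2 (0.894), while the median over all genes was 0.00627.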

How the data were processed

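RNA of C6 cells in 8 groups of 4 was hybridised to single-colour Agilent rat arrays. The authors deposited scanner intensities written by Agilent Feature Extraction 9.5.3.1 (background-subtracted processed signal, with another protocol at 3 h than at 6 h) and a table of log2 values, of which 38.2% were blank and which served as an alternative. The members and all gene lists were chosen with earlier results of these data known.

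Processed signals of probes for transcripts had outlier spots removed, dim spots at 3 h set to the signal error, as the software had done at 6 h, and log2 taken. Cyclic loess (span 0.7, 3 iterations) was run over the 16 arrays of each time. Probes were kept where at least 1 group had all 4 arrays well above background, with at most 2 gaps, and probes of a gene were averaged. limma 3.58.1 (R 4.3.3) was fitted to all 16 arrays with the slide as a block, and p-values were adjusted by Benjamini-Hochberg over all genes. Residuals of arrays with the same replicate number correlated at 0.144 or more at 3 h and 0.55 or more at 6 h (medians 0.674 and 0.686; other slides -0.124 and -0.171), so the numbers pair the samples. The scripts were tested on simulated data.

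The pathway lists were helicase loading (Orc1 to Orc6, Cdc6, Cdt1, Gmnn), activation (Cdc45, GINS, Cdc7, Dbf4, Topbp1, Mtbp, Recql4, Donson, Wdhd1), fork (Pcna, replication factor C, polymerases alpha, delta and epsilon, primase, Rpa, Fen1, Lig1, Clspn, Timeless, Tipin, Chaf1), E2F factors with G1/S cyclins, and mitosis. From each list and comparison at most the 3 genes with the largest change were named, among those past both limits, changed the same way on all 4 slides and well above background on all 16 arrays, with the 5 genes most like the family mean. Several list genes bear older names in the files. The number of arrays limits the precision.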

Additional observations from a re-analysis of the deposited data

Results flagged for a closer look

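Over the members, 64 groups of 4 signals and 48 sets of 4 within-slide differences were searched for a sample far from the others of its set. In 24 pairs of 3 h and 6 h differences a switch between 0 and 4 of 4 slides higher was looked for. No such switch was found. A single sample was found far from its set, where chance marks about 1 in 20 groups. It was the Ang II x Control difference of Mcm6 at 3 h on the slide of replicate 2, which was 1.40 on the log2 scale against 0.40, 0.55 and 0.52 on the other slides, a gap of 0.847 of the whole range.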

How the results depend on the processing

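Without the replicate block, that is, without the pairing by slide, 0 members were past both limits between Ang II and Control at either time and 0 between Ang II+Los and Ang II at 3 h, where the blocked fit gave 5, 5 and 3. A paired t-test on the within-slide differences, with the same limits on p and fold, gave 2, 1 and 1. The study's methods name t-tests with the limit on p alone. For Losartan over Ang II at 3 h the count was 2 with 75th percentile scaling, with quantile normalization and without a filter, 1 with normexp background, 1 with only the 8 arrays compared and 0 without the Ang II+Los arrays of replicates 1 and 2, an alternative chosen after seeing the data. With the deposited values, which held 6 members at 3 h, 3 were past the limits with Ang II and the median with Losartan was 0.0488. Leaving out a replicate gave 2 to 6 members for Ang II at 3 h, 1 to 6 at 6 h and 0 to 4 for Losartan at 3 h. The Losartan difference of Mcm4 at 3 h was above 0 with the deposited values (0.10), within scan 2 (0.0345), without the 2 Ang II+Los arrays (0.0885) and with probe A_43_P14634 alone (0.12). No other member changed direction where it was past the limits. With Ang II the members measured under an alternative all stayed above 0 at both times, except Mcm4 within scan 1 at 3 h, at -0.02. Of the member values that were tested under alternatives 602 kept their side of the limits, 57 were no longer past them, 10 came past them and 3 reversed. Most of the 602 were not past the limits in the main fit, so this is no measure of how stable the calls were. The calls held in from 3 of 13 alternatives (Mcm4 with Losartan at 3 h) to 12 of 13 (Mcm4 with Ang II at 6 h). Mcm7 with Ang II at 3 h held in 5 of 13. These counts leave out single probes and the removal of the 2 Ang II+Los arrays. The 72 within-scan values had no test, and causes were not tested. Among all genes, 75th percentile scaling moved the share of higher calls with Ang II from 45.7% to 23.1% at 3 h and from 59.2% to 44.1% at 6 h, quantile normalization to 34.7% and normexp background to 58.7% at 3 h. The genes past both limits with Ang II, with Losartan and with PD123319 numbered 1503, 1374 and 360 at 3 h and 1885, 148 and 624 at 6 h. They numbered 356, 341, 62, 528, 35 and 113 without the replicate block, 658, 136, 149, 731, 59 and 287 by the paired t-test and 884, 999, 175, 756, 18 and 157 with normexp background. Without replicate 2 Losartan at 3 h gave 221 and without the 2 Ang II+Los arrays 515. The share of higher calls with PD123319 moved from 76.4% to 93.7% at 3 h and from 67.8% to 90.5% at 6 h with 75th percentile scaling, under which 0 members were past the limits. The number of arrays, with 4 per group, limits how small a difference could be seen.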
